A study of Mus musculus with 7 samples.

Results

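Nuclear genes for subunits of respiratory complexes II to V were followed in 7 mouse oocytes, each sequenced alone at metaphase II (MII), the stage at which an egg awaits fertilization. The genes were taken by symbol: Sdha, Sdhb, Sdhc and Sdhd, and every symbol that starts with Uqcr, Cox4, Cox5, Cox6, Cox7, Cox8 or Atp5. This rule found 54 of 37620 genes in the table, 4 of complex II, 10 of complex III, 19 of complex IV and 21 of complex V. Protein-coding genes made up 47 of them, and 7 were copies or pseudogenes (Uqcrh-ps1, Uqcrh-ps2, Cox6c2, Atp5k-ps2, Atp5l-ps1, Atp5l-ps2 and Atp5l2-ps). Atp5s, which fits the rule by name, encodes a factor linked to ATP synthase and not one of its fixed subunits.

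The KO group was 4 oocytes (KO1 to KO4) with floxed Hira alleles and the Zp3-Cre transgene (Hiraf/f, Zp3-Cre). The WT group was 3 oocytes (WT1, WT2 and WT4) with the same floxed alleles and no Cre (Hiraf/f). Hira encodes a chaperone that places the histone variant H3.3 on DNA, and the Zp3 promoter is active in growing oocytes, so the deletion concerns the oocyte and not the cells around it. Strain, age, animal and sequencing lane of an oocyte are not given in the sources used here. Each library is 1 oocyte, so a genotype counts as 1 sample, no test of genotype was made, and every SD is the spread between single oocytes.

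The respiratory chain sits in the inner mitochondrial membrane. Complex II (succinate dehydrogenase) passes electrons from succinate to ubiquinone, complex III passes them on to cytochrome c, complex IV (cytochrome c oxidase) hands them to oxygen, and complex V (ATP synthase) uses the resulting proton gradient to make ATP. Complexes III, IV and V mix subunits from the nucleus with subunits from the mitochondrial genome, and several nuclear subunits of complex IV exist as isoforms from separate genes with their own tissue ranges. Oocytes make most of their ATP by this route, from pyruvate.

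Sequences of 2 isoform pairs are shown because the results below turn on whether reads of an isoform can be told from those of its partner. Each line is a stretch of 90 bases of coding sequence at the same aligned place in both genes, from GENCODE transcripts on GRCm38, in lower case with the bases that differ within the pair in capitals. Cox4i2 lies on chromosome 2 (152754173 to 152765037, plus strand) and Cox4i1 on chromosome 8 (120668222 to 120674207, plus strand). Both genes of the other pair lie on the minus strand of chromosome 7, Cox6b2 at 4751792 to 4753094 and Cox6b1 at 30616861 to 30626151.
Cox4i2: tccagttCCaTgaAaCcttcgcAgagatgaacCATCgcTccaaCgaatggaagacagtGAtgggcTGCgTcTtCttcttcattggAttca
Cox4i1: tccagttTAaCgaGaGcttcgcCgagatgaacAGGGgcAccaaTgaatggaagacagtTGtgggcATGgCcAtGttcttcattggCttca
Cox6b2: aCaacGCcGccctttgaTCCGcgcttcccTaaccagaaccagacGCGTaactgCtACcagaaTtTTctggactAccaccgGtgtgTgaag
Cox6b1: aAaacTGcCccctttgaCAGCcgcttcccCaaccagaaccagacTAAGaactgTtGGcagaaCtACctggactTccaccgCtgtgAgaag

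In the Cox4 stretch 69 bases were identical and 21 differed, and in the Cox6b stretch 68 were identical and 22 differed. Over the whole alignment the coding sequences of Cox4i2 (516 bases) and Cox4i1 (507 bases) were 69.6% identical, with no identical run longer than 14 bases. The Cox6b2 and Cox6b1 coding sequences (312 and 258 bases) were 64.9% identical, also with no run longer than 14 bases. No stretch of 50 bases was shared within any of the compared isoform pairs.

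Levels are FPKM, the authors' reads scaled to the length of the gene and to the reads of the library. A gene was compared where its FPKM was at least 1 in at least 3 libraries, and its difference is the mean of log2(FPKM + 1) in KO minus that in WT oocytes. It is called higher or lower where it was over 1.5-fold apart on that scale, which understates changes of low genes. The filter left 8033 genes of the table and 40 of the 54, none of them a copy or pseudogene. Of the 14 others, 7 are coding genes (Uqcrc1, Cox7a1, Cox7b2, Cox8b, Atp5g1, Atp5j and Atp5s).

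An oocyte held between 15403625 and 26046739 reads assigned to genes. Hira itself was at 0.0784 ± 0.036 FPKM in KO and 0.317 ± 0.028 FPKM in WT oocytes, 24.7% of the WT level, with no KO oocyte as high as the lowest WT oocyte. All 12 oocyte markers passed the filter, and 5 of them (Zp2, Gdf9, Bmp15, Dppa3 and Oosp1) were over 1.5-fold lower in KO oocytes. That is 41.7%, beside 7.92% of all genes above the filter and 17.1% of genes with a mean FPKM of at least 100. The median level of these markers was 176 FPKM. Of 18 cumulus and granulosa cell markers, 3 passed the filter, 7 were listed at 0 in all 7 oocytes (Amh, Foxl2, Inhbb, Tnfaip6, Cd44, Lhcgr and Wt1), and their summed level was 13.2 to 17.1 FPKM in KO and 4.77 to 7.30 FPKM in WT oocytes. Fshr, the FSH receptor gene, was at 0, 2.99, 4.34 and 4.51 FPKM in KO1 to KO4. It was listed at 0 in all WT oocytes, so it passed the filter only through KO oocytes. Nr5a2, a nuclear receptor gene, was at 7.25 ± 0.904 FPKM in KO and 2.53 ± 0.994 FPKM in WT oocytes. Kitl was at 4.52 ± 1.18 FPKM in KO and 3.11 ± 0.181 FPKM in WT oocytes, and these 3 genes made up most of the sum. Below the filter, Has2 (0 KO and 44 WT reads), Ptgs2 (18 and 56) and Hsd3b1 (7 and 37) were lower in KO oocytes. Inha, Inhba, Ptx3, Star and Cyp11a1, also below it, had higher KO means. Blood and stroma markers summed to 3.16 to 4.19 FPKM in KO and 4.67 to 5.90 FPKM in WT oocytes, nearly all of it Pecam1. What part these markers have in the results below was not tested.

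Most of the subunit genes lay within 1.5-fold between KO and WT oocytes, and a single gene, Cox4i2, stood far apart. Of the 40 genes, 5 were over 1.5-fold higher in KO oocytes (Cox4i2, Uqcr10, Uqcr11, Atp5mpl and Atp5h), where 22.6% of all genes above the filter were, and 3 were lower (Sdha, Sdhb and Atp5g2), where 7.92% of all genes were. These counts are 12.5% and 7.5% of the 40. The other 32 lay within 1.5-fold. Over 2-fold higher were 2 of the 40, Cox4i2 and Uqcr10, beside 7.95% of all genes, and none was over 2-fold lower, beside 2.34% of all genes. This holds for the deposited FPKM with all 7 oocytes: Atp5g2 was over 2-fold lower with median-ratio scaling (-1.17), with quantile normalization (-1.10), with a pseudocount of 0.1 (-1.06) and without any 1 of KO2, KO3 or WT2, Sdha was with median-ratio scaling (-1.01), and the Uqcr10 difference was under 2-fold with either scaling (0.78 and 0.85), with a pseudocount of 5 (0.80) and without any 1 of KO1, KO2, KO3 or WT2. Atp5mpl was over 2-fold higher without any 1 of KO1, KO4, WT1 or WT4 (1.04, 1.01, 1.16 and 1.16). With all 7 oocytes, the median difference was -0.05 over the 40 genes and 0.18 over all genes, and 17 differences were positive and 23 negative. With median-ratio scaling these medians were -0.26 over the 40 genes and -0.01 over all genes, with 3 subunit genes higher and 7 lower beside 14.7% and 14.2% of all genes. With quantile normalization 3 were higher and 6 lower, beside 14.1% and 12.9% of all genes. KO oocytes lay wholly above WT oocytes for Cox4i2 and Cox7a2l alone among the 40 (18.9% of all genes), and below for Sdha alone (8.94% of all genes).

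These genes are among the better expressed ones, so the same counts were taken at a higher level. Of the 24 with a mean FPKM of at least 10, 4 were over 1.5-fold higher and 2 lower in KO oocytes. Among all 2783 genes at that level, 16.3% were higher and 9.63% lower. The median difference there was 0.00 for the subunit genes and 0.07 for all genes.

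**Figure D1:**
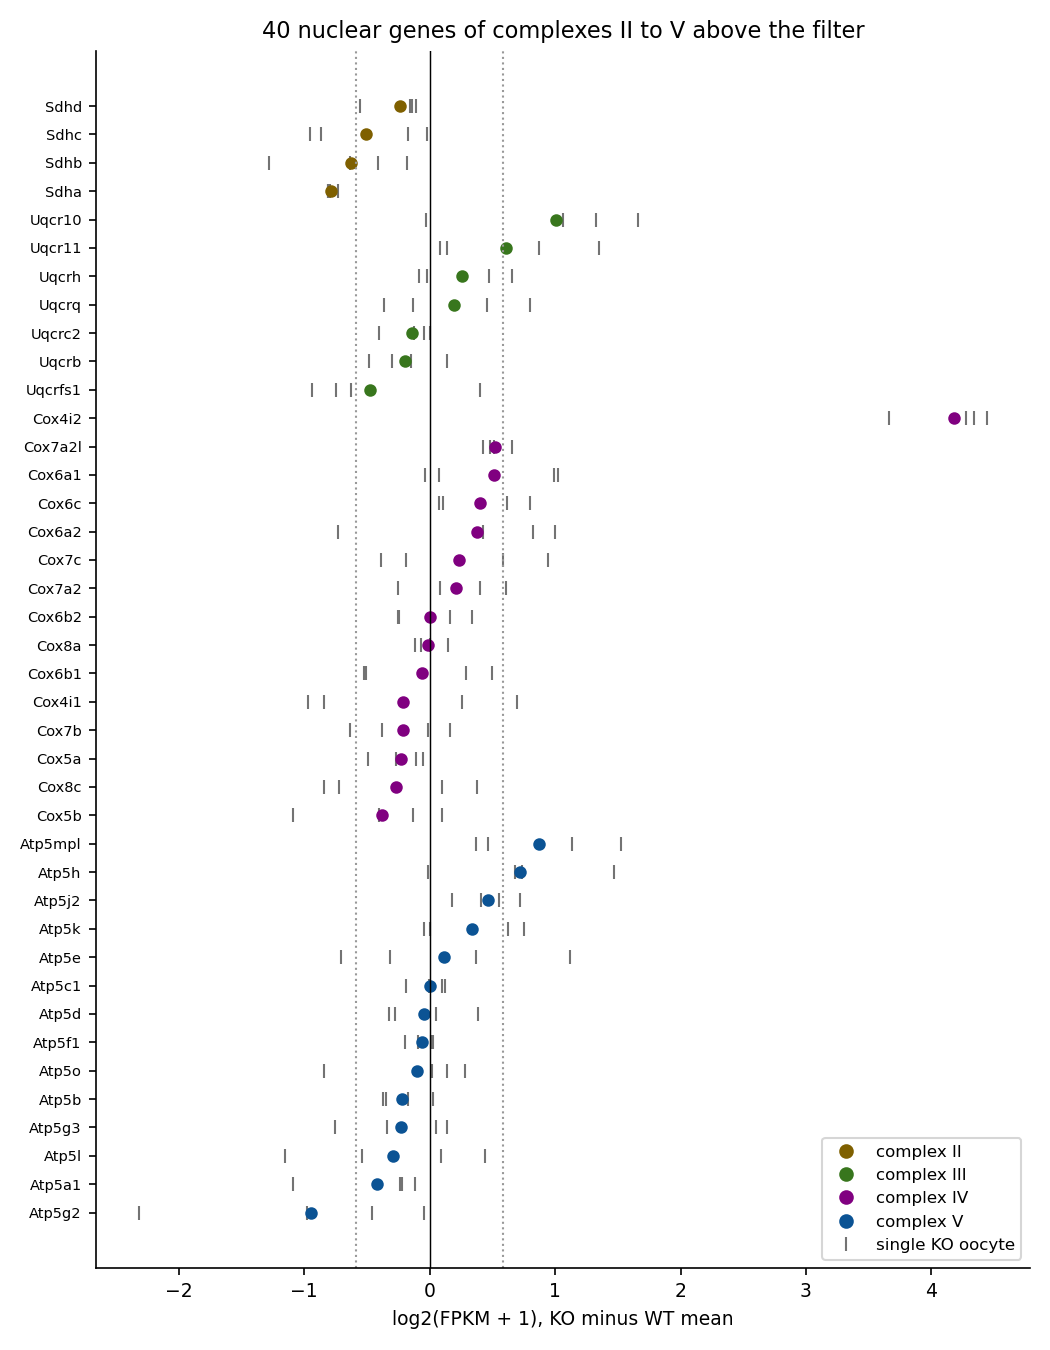
Difference of each of the 40 genes above the filter on the log2(FPKM + 1) scale, KO minus WT, with the mean as a coloured dot and each KO oocyte minus the WT mean as a grey tick; dotted lines mark 1.5-fold. Cox4i2 stands at 4.18 with all 4 KO oocytes near it, and Sdha at -0.79 has the tightest KO oocytes of the genes outside the lines.

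The sum over all genes of a complex overlapped between the groups for each of the 4 complexes except complex II, where every KO oocyte was below every WT oocyte. Complex II summed to 41.5 ± 5.14 FPKM in KO and 59.5 ± 16.4 FPKM in WT oocytes. The margin was thin, with KO3 at 45.5 FPKM and WT1 at 46.4 FPKM. The sum over all genes of the table was also lower in every KO oocyte (242736 to 256613 FPKM) than in any WT oocyte (261571 to 268765 FPKM). The complex III sum was 216 ± 50.2 FPKM in KO and 194 ± 25.7 FPKM in WT oocytes. Complex IV summed to 1112 ± 180 FPKM in KO and 984 ± 140 FPKM in WT oocytes, and without Cox4i2 to 1033 ± 167 FPKM in KO and 980 ± 138 FPKM in WT oocytes. For complex V the sum was 351 ± 118 FPKM in KO and 279 ± 83.6 FPKM in WT oocytes.

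All 4 genes of complex II had a negative difference, with a median of -0.56. Sdha and Sdhb were over 1.5-fold lower (50%, beside 7.92% of all genes). Sdha encodes the flavoprotein that oxidizes succinate. It was at 11.0, 10.4, 10.5 and 10.4 FPKM in KO1 to KO4, against 20.6, 16.7 and 19.8 FPKM in WT1, WT2 and WT4. The KO oocytes lay within a narrow band, well under the lowest WT oocyte. The means were 10.6 ± 0.294 FPKM in KO and 19.0 ± 2.08 FPKM in WT oocytes, 55.6% of the WT level and a difference of -0.79. Its reads numbered 5805 in KO and 6486 in WT oocytes, a rate ratio of 0.559 (95% Poisson interval 0.539 to 0.579). Such intervals cover counting error only, since reads of amplified cDNA are not independent molecules.

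Sdhb, the iron-sulfur subunit, was at 0.357, 1.48, 1.91 and 1.13 FPKM in KO1 to KO4, against 1.05, 2.86 and 3.52 FPKM in WT1, WT2 and WT4. The groups overlapped through WT1, and KO1 was the lowest of all. Its difference of -0.62 was -0.41 without KO1, -0.51 without WT2 and -0.40 without WT4, which is within 1.5-fold, and was -0.97 without WT1. Sdhc and Sdhd encode the membrane anchors that bind ubiquinone. Sdhc was at 2.21, 5.12, 4.52 and 2.41 FPKM in KO1 to KO4, against 4.23, 4.38 and 7.55 FPKM in WT1, WT2 and WT4. Sdhd was at 20.7, 27.8, 28.6 and 27.5 FPKM in KO1 to KO4, against 20.5, 30.3 and 47.0 FPKM in WT1, WT2 and WT4. Both overlapped between the groups, with WT4 highest, and the Sdhd difference of -0.24 turned to 0.06 without WT4 and was -0.52 without WT1. The Sdhc difference of -0.50 was -0.27 without WT4 and -0.70 with median-ratio scaling. Sdhc was over 1.5-fold lower with either scaling, with a pseudocount of 0.1, and without any 1 of KO2, KO3, WT1 or WT2. No more than 0.0916% of the sequence of any of the 4 genes is shared with other genes, counted in stretches of 50 bases.

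**Figure D2:**
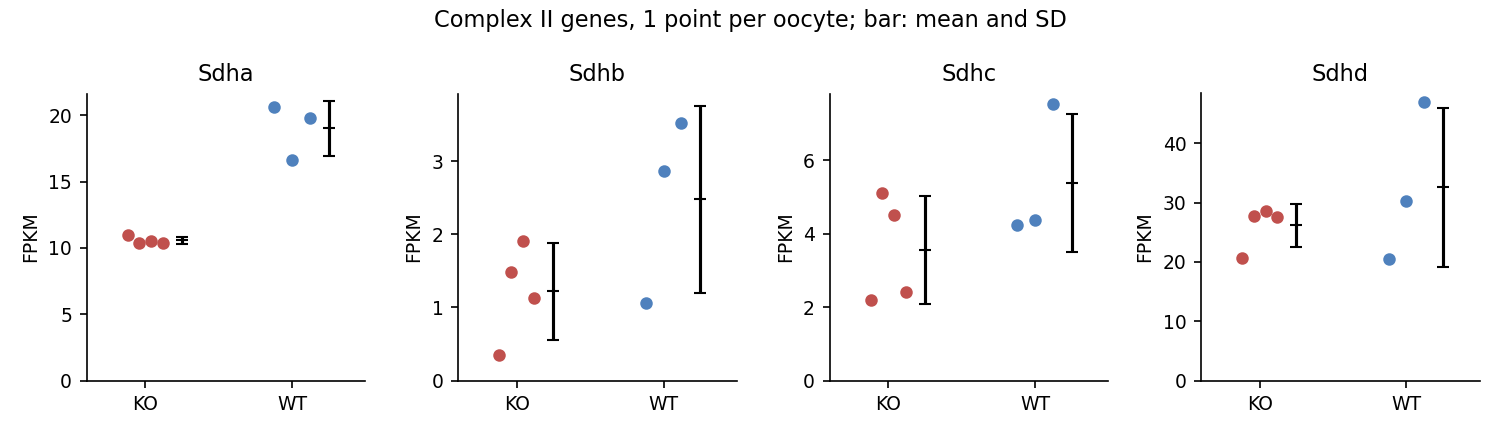
FPKM of the 4 complex II genes, 1 point per oocyte (KO red, left; WT blue, right), with the mean and SD in black. The 4 KO oocytes lie at 10.4 to 11.0 FPKM for Sdha, below all 3 WT oocytes, while the other genes overlap.

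Of 4 genes for assembly factors of complex II, 3 passed the filter and none was over 1.5-fold apart (beside 22.6% of all genes higher and 7.92% lower). Sdhaf3 was at 1.41 ± 0.504 FPKM in KO and 0.673 ± 0.371 FPKM in WT oocytes, with overlap. Sdhaf2, which helps attach the flavin to the Sdha protein, was at 8.12 ± 0.748 FPKM in KO and 6.23 ± 1.04 FPKM in WT oocytes, with all KO values over all WT values.

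In complex III, 7 of 10 genes passed the filter, and no gene parted the groups. Of all genes above the filter, 18.9% lay wholly above and 8.94% wholly below. Over 1.5-fold higher were 2 small subunits (28.6%, beside 22.6% of all genes), and none was lower (beside 7.92%). Uqcr10 was at 23.2, 35.5, 28.1 and 10.4 FPKM in KO1 to KO4, against 16.9, 5.15 and 13.1 FPKM in WT1, WT2 and WT4. Uqcr11 was at 41.0, 96.4, 68.8 and 39.3 FPKM in KO1 to KO4, against 59.8, 16.1 and 52.4 FPKM in WT1, WT2 and WT4. For both genes KO2 was the highest oocyte and WT2 the lowest. The difference of 1.01 for Uqcr10 was 0.55 without WT2. That of 0.61 for Uqcr11 was 0.03 without WT2, 0.36 without KO2 and 0.52 without KO3, was 0.95 without WT1, and was 0.37 with median-ratio scaling.

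Uqcrc2, a core subunit, was the most abundant gene of complex III. It was at 82.5, 101, 110 and 106 FPKM in KO1 to KO4, against 93.3, 121 and 116 FPKM in WT1, WT2 and WT4, with overlap. Of its sequence, 17.6% is shared with Pdzd9, whose exons overlap its own on the other strand, so its reads are less certain. Its partner in the core, Uqcrc1, was below the filter, at 0.261 ± 0.133 FPKM in KO and 0.122 ± 0.147 FPKM in WT oocytes, from 53 KO and 17 WT reads. The Rieske iron-sulfur subunit gene Uqcrfs1 was also low, at 1.28 ± 1.09 FPKM in KO and 2.06 ± 1.05 FPKM in WT oocytes, with overlap. Uqcrfs1 was over 1.5-fold lower with median-ratio scaling, with quantile normalization, with a pseudocount of 0.1 and without KO2 or WT4. The hinge protein gene Uqcrh and the small subunit genes Uqcrb and Uqcrq had means of 7.59 to 11.8 FPKM in either group and differences of -0.20 to 0.26. Of the Uqcrb sequence, 25.5% is shared with other genes, so its reads are less certain. Of 6 genes for complex III assembly, 1 passed the filter, Uqcc2, at 2.79 ± 1.09 FPKM in KO and 2.67 ± 0.295 FPKM in WT oocytes.

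Cytochrome c oxidase held the largest difference of the set. Cox4i2 encodes the alternative form of subunit 4, known from lung and from oxygen-sensing cells, and Cox4i1 the form found in most tissues. Cox4i2 was at 54.0, 93.6, 87.0 and 83.1 FPKM in KO1 to KO4, against 5.15, 1.47 and 4.39 FPKM in WT1, WT2 and WT4. The lowest KO oocyte, KO1, was still about an order of magnitude above the highest WT oocyte. The means were 79.4 ± 17.5 FPKM in KO and 3.67 ± 1.94 FPKM in WT oocytes, 21.6-fold higher, with a difference of 4.18 that ranked 2 among 8033 genes. It held 9464 reads in KO and 256 in WT oocytes, a rate ratio of 23.1 (95% Poisson interval 20.4 to 26.2).

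Cox4i1 was at 9.22, 31.4, 22.8 and 10.1 FPKM in KO1 to KO4, against 24.4, 17.9 and 15.6 FPKM in WT1, WT2 and WT4. The WT oocytes lay inside the range of the KO oocytes, of which KO1 and KO4 were low and KO2 high. Its means were 18.4 ± 10.6 FPKM in KO and 19.3 ± 4.53 FPKM in WT oocytes, and its difference of -0.21 turned to 0.04 without KO1. The difference was -0.52 without KO2, -0.44 with median-ratio scaling and -0.36 with quantile normalization, each within 1.5-fold. The rate ratio of its reads was 0.981 (0.898 to 1.07). Of the Cox4i1 sequence, 6.65% is shared with other genes, and 154 bases of its exons overlap Emc8 on the other strand, so some of its reads are less certain.

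The share of Cox4i2 in the summed FPKM of both isoforms was 85.4%, 74.9%, 79.2% and 89.1% in KO1 to KO4, against 17.5%, 7.58% and 22.0% in WT1, WT2 and WT4. The groups did not overlap. The mean share was 82.2% ± 6.34 in KO and 15.7% ± 7.36 in WT oocytes, 66.5 points higher. The share depends on the gene length used, since the authors' lengths were 1163 bases for Cox4i2 and 679 for Cox4i1, where the GENCODE transcripts with the longest coding sequence have 733 and 765. On the transcript lengths the share was 89.1% ± 4.19 in KO and 24.6% ± 10.6 in WT oocytes. The pair summed to 97.8 ± 26.4 FPKM in KO and 23.0 ± 5.68 FPKM in WT oocytes, and the sum was higher in every KO oocyte (63.3 to 125 FPKM) than in any WT oocyte (19.4 to 29.5 FPKM).

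**Figure D3:**
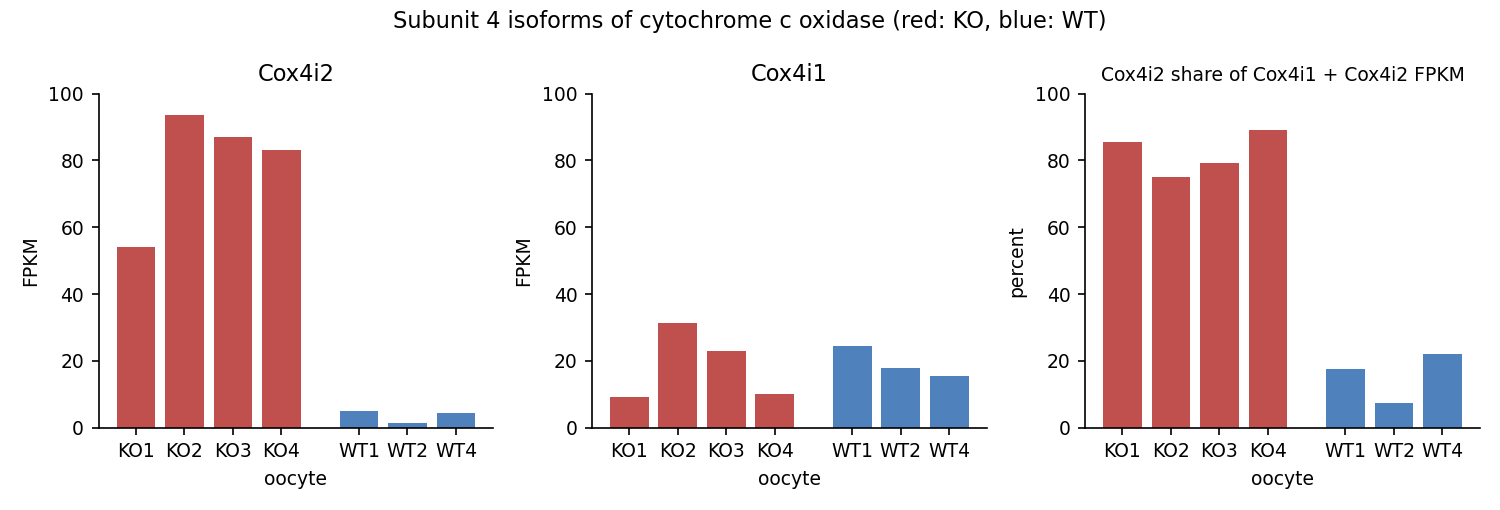
FPKM of Cox4i2 and Cox4i1 and the percent of their sum held by Cox4i2, 1 bar per oocyte (KO red, left; WT blue, right). Cox4i2 stands at 54.0 to 93.6 FPKM in KO and at 1.47 to 5.15 FPKM in WT oocytes, while the Cox4i1 bars of the groups overlap.

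In GENCODE on GRCm38, no stretch of 50 bases of Cox4i2 is shared with another gene's transcripts, and no exon of another gene overlaps it. The Cox4i2 exons there span 788 bases and the authors' length is 1163 bases, so part of the counted sequence was not checked. Of Tpx2, Bcl2l1 and Id1 around it on chromosome 2, only Tpx2 passed the filter, and Tpx2 showed no like difference. Tpx2, a spindle protein gene, was at 81.4 ± 6.95 FPKM in KO and 81.1 ± 7.07 FPKM in WT oocytes. Bcl2l1, a survival factor gene, was at 0.516 ± 0.220 FPKM in KO and 0.840 ± 0.190 FPKM in WT oocytes, and Id1 was listed at 0 in every oocyte but KO1.

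Genes known, mostly from human and mouse cell culture, to act on the choice between the subunit 4 isoforms were listed beside them. Of 7, 5 passed the filter, 1 was higher by over 1.5-fold (20%, beside 22.6% of all genes) and none was lower (beside 7.92%). That gene was Lonp1, a mitochondrial protease that degrades the Cox4i1 protein under low oxygen, and it passed the filter only through KO oocytes, so its call is no support for the list. It was at 1.34, 1.02, 0.960 and 1.00 FPKM in KO1 to KO4, against 0.554, 0.334 and 0.196 FPKM in WT1, WT2 and WT4, without overlap. Hif1a, the oxygen-regulated transcription factor, was at 44.9 ± 7.07 FPKM in KO and 42.0 ± 18.1 FPKM in WT oocytes, and its partner Arnt at 0.858 ± 0.276 FPKM in KO and 1.43 ± 0.266 FPKM in WT oocytes. The transcription factor gene Rbpj was at 13.2 ± 2.83 FPKM in KO and 10.9 ± 2.58 FPKM in WT oocytes, Chchd2 at 2.22 ± 1.31 FPKM in KO and 1.48 ± 0.391 FPKM in WT oocytes, and Epas1 was listed at 0 in all of them.

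In the other isoform sets of complex IV the shares of the 2 groups overlapped. Cox6b2, the form of subunit 6b known from testis, was the most abundant of the 54 genes, at 296, 294, 444 and 393 FPKM in KO1 to KO4, against 377, 341 and 337 FPKM in WT1, WT2 and WT4. The ubiquitous form Cox6b1 was at 56.5, 114, 98.7 and 55.6 FPKM in KO1 to KO4, against 96.1, 48.6 and 111 FPKM in WT1, WT2 and WT4. Both overlapped between the groups. Cox6b2 held 81.4% ± 6.66 of the pair in KO and 80.8% ± 6.26 in WT oocytes, so the testis form made up most of the pair in either genotype.

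Subunit 6a went the other way, with the ubiquitous form ahead. Cox6a1 was at 45.6, 96.3, 94.1 and 49.6 FPKM in KO1 to KO4, against 55.5, 25.8 and 71.7 FPKM in WT1, WT2 and WT4. The heart and muscle form Cox6a2 was at 6.22, 3.83, 5.40 and 1.18 FPKM in KO1 to KO4, against 2.01, 2.15 and 3.92 FPKM in WT1, WT2 and WT4. Cox6a2 held 5.89% ± 4.26 of the pair in KO and 5.46% ± 2.11 in WT oocytes, with overlap.

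Among the subunit 7a genes, the heart and muscle form Cox7a1 was listed at 0 in every oocyte. Cox7a2, the ubiquitous form, was at 137, 197, 171 and 108 FPKM in KO1 to KO4, against 135, 90.7 and 175 FPKM in WT1, WT2 and WT4, with overlap. Cox7a2l encodes a related protein that joins complexes III and IV into supercomplexes. It was at 57.1, 58.4, 64.7 and 54.8 FPKM in KO1 to KO4, against 46.6, 40.4 and 35.4 FPKM in WT1, WT2 and WT4. The KO values lay wholly above the WT values, at means of 58.7 ± 4.22 FPKM in KO and 40.8 ± 5.63 FPKM in WT oocytes and a difference of 0.52, which is within 1.5-fold. That difference was 0.28 with median-ratio scaling and 0.62, past 1.5-fold, without WT1. Of its sequence, 13.8% is shared with the gene Gm6969. Cox7a2l held 28.4% ± 4.53 of the subunit 7a set in KO and 24.5% ± 7.07 in WT oocytes, with overlap.

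Cox8a, the ubiquitous subunit 8 gene, was at 165, 174, 192 and 160 FPKM in KO1 to KO4, against 174, 153 and 196 FPKM in WT1, WT2 and WT4. Cox8c, known from testis, was near the filter, at 0.714 ± 0.701 FPKM in KO and 1.00 ± 0.566 FPKM in WT oocytes, with 33 reads in KO and 31 in WT oocytes. Cox7b was at 3.46, 5.49, 4.76 and 2.74 FPKM in KO1 to KO4, against 6.53, 4.02 and 4.15 FPKM in WT1, WT2 and WT4, with overlap. Cox7a1, Cox7b2 and Cox8b were listed at 0 in all 7 oocytes. So were Cox11 and Sco2, assembly factors that complex IV needs in any cell, so a listed 0 in this table does not show that a gene was not expressed. Cox6c, Cox7c, Cox5a and Cox5b, which have no second form in the set above the filter, had differences of -0.38 to 0.40. None of the 14 complex IV genes above the filter other than Cox4i2 was over 1.5-fold apart on the deposited FPKM with all 7 oocytes. Cox6a1 was over 1.5-fold higher without any 1 of KO1, KO4, WT1 or WT4, Cox6a2 without KO4 or WT4, and Cox6c and Cox7a2l without WT1. Cox5b was over 1.5-fold lower with median-ratio scaling, and Cox8c was with a pseudocount of 0.1 (-0.80).

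**Figure D4:**
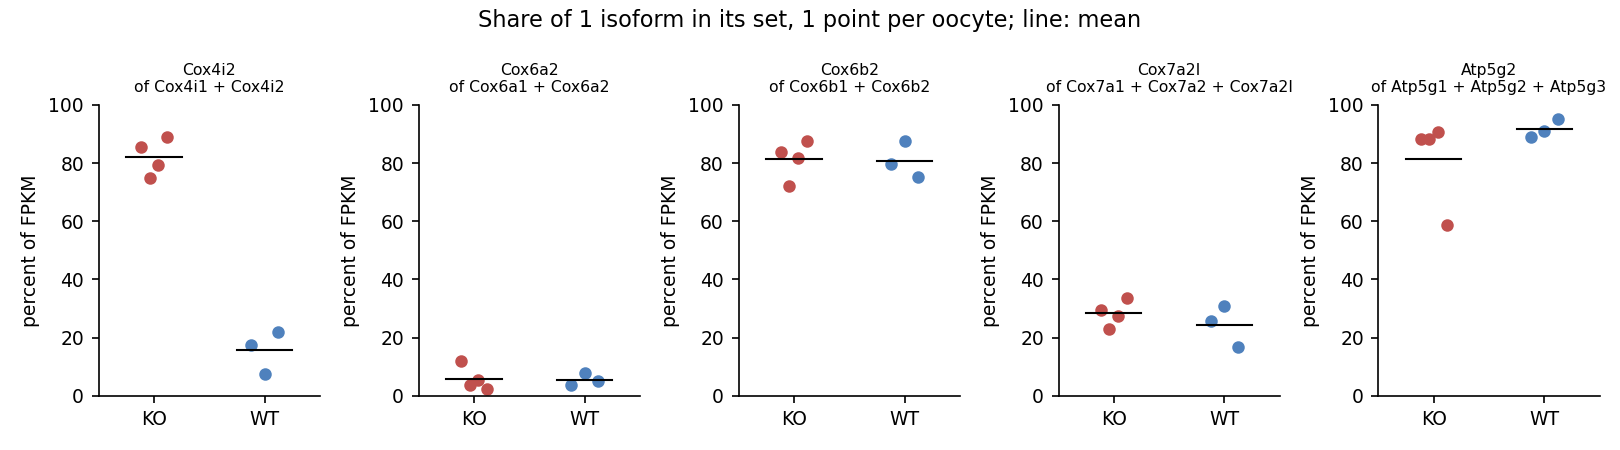
Percent of the summed FPKM of an isoform set held by 1 isoform, 1 point per oocyte (KO red, left; WT blue, right), with the mean as a line. The groups are apart for Cox4i2, at 74.9% to 89.1% in KO and 7.58% to 22.0% in WT oocytes, and overlap for Cox6a2, Cox6b2, Cox7a2l and Atp5g2.

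Complex IV needs many assembly factors. Of 25 such genes in the table, 15 passed the filter, 2 were over 1.5-fold higher (13.3%, beside 22.6% of all genes) and 3 lower (20%, beside 7.92% of all genes). Coa6, a factor for the copper centre, was at 12.2, 9.21, 6.09 and 6.45 FPKM in KO1 to KO4, against 3.03, 2.84 and 2.45 FPKM in WT1, WT2 and WT4, without overlap. Coa5 was at 3.36 ± 1.49 FPKM in KO and 1.48 ± 0.607 FPKM in WT oocytes, with overlap. The WT oocytes alone would not have carried Coa5 past the filter, since WT2 was at 0.776 FPKM. The 3 lower genes were below WT in every KO oocyte, as were 8.94% of all genes. Surf1, needed for heme insertion, was at 2.73 ± 0.451 FPKM in KO and 5.22 ± 0.580 FPKM in WT oocytes. Cmc1 was at 47.7 ± 11.4 FPKM in KO and 70.7 ± 1.51 FPKM in WT oocytes, and Cmc2 at 6.05 ± 1.90 FPKM in KO and 9.84 ± 0.257 FPKM in WT oocytes. Ndufa4, a subunit first assigned to complex I and now to complex IV, was at 744 ± 43.2 FPKM in KO and 631 ± 198 FPKM in WT oocytes, above every one of the 54 genes. Of 5 genes for electron carriers and remaining subunits, Ndufa4 among them, 3 passed the filter, all within 1.5-fold. Of all genes above the filter, 22.6% were higher and 7.92% lower. Cycs, the somatic cytochrome c, was at 14.8 ± 3.45 FPKM in KO and 14.9 ± 0.532 FPKM in WT oocytes. Cyct, the testis form, was at 6.08 ± 3.24 FPKM in KO and 4.42 ± 0.638 FPKM in WT oocytes. Below the filter, Cyc1, the cytochrome c1 gene of complex III, was at 0.688 ± 0.551 FPKM in KO and 0.0925 ± 0.0801 FPKM in WT oocytes, with overlap. Cyc1 had 78 KO and 7 WT reads, and Ndufa4l2 had 3 and 5.

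In complex V, 14 of the 21 genes taken by symbol passed the filter, and none of these parted the groups. Of all genes above the filter, 18.9% lay wholly above and 8.94% wholly below. Usmg5, a membrane subunit outside the symbol rule, did part the groups and is given below. Of the 14, 2 were over 1.5-fold higher (14.3%, beside 22.6% of all genes) and 1 lower (7.14%, beside 7.92%). In the catalytic part and the central stalk, the beta subunit gene Atp5b was at 23.8 ± 3.29 FPKM in KO and 27.9 ± 5.12 FPKM in WT oocytes, and the gamma subunit gene Atp5c1 at 20.5 ± 2.03 FPKM in KO and 20.5 ± 3.05 FPKM in WT oocytes. The alpha subunit gene Atp5a1 was at 4.37 ± 1.42 FPKM in KO and 6.03 ± 1.47 FPKM in WT oocytes. With median-ratio scaling and with quantile normalization Atp5a1 was over 1.5-fold lower. Atp5j2 was over 1.5-fold higher with a pseudocount of 0.1 and without WT1. The delta and epsilon subunit genes Atp5d and Atp5e had differences of -0.04 and 0.12.

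Atp5mpl, a small proteolipid of the membrane part, had the highest mean FPKM of complex V. This rank depends on the gene length used. The authors' lengths were 365 bases for Atp5mpl and 6917 for Atp5b, where the GENCODE transcripts with the longest coding sequence have 612 and 1916. Atp5b held more reads, 16297 in KO and 11882 in WT oocytes, against 7188 and 2467 for Atp5mpl. Atp5mpl was at 128, 287, 219 and 137 FPKM in KO1 to KO4, against 147, 44.4 and 148 FPKM in WT1, WT2 and WT4. WT2 was far below the other oocytes, and without WT2 the difference of 0.87 was 0.30. Atp5h, subunit d of the peripheral stalk, was at 6.28, 10.7, 19.3 and 11.2 FPKM in KO1 to KO4, against 6.22, 5.92 and 6.93 FPKM in WT1, WT2 and WT4. KO3 was the highest, KO1 lay among the WT oocytes, and the difference of 0.72 was 0.47 without KO3 and 0.50 with median-ratio scaling. Of the Atp5h sequence, 19.9% is shared with other genes. Atp5l, a small membrane subunit, was at 22.2, 68.9, 54.0 and 34.4 FPKM in KO1 to KO4, against 46.6, 44.8 and 61.6 FPKM in WT1, WT2 and WT4, with overlap.

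The ring subunit c that turns with the proton flow is made from any of 3 genes for the same mature protein. Atp5g2 was at 7.92, 16.0, 11.8 and 2.51 FPKM in KO1 to KO4, against 15.4, 11.8 and 24.5 FPKM in WT1, WT2 and WT4. KO4 was lowest, the groups overlapped, and the difference of -0.95 was -0.49 without KO4. Of the Atp5g2 sequence, 38.4% is shared with other genes, so its level is uncertain. Atp5g1 was below the filter, at 0.873, 0.919, 0.640 and 0.696 FPKM in KO1 to KO4, against 0.573, 0.316 and 0.397 FPKM in WT1, WT2 and WT4, with the KO values wholly above the WT values. Its 414 reads in KO and 143 in WT oocytes gave a rate ratio of 1.81 (1.49 to 2.20). Atp5g3 was at 0.194, 1.22, 0.589 and 1.08 FPKM in KO1 to KO4, against 1.32, 0.852 and 0.900 FPKM in WT1, WT2 and WT4. Atp5g2 held 81.4% ± 15.2 of the summed FPKM of the 3 genes in KO and 91.7% ± 3.03 in WT oocytes, and KO4 was the low oocyte at 58.5%. With the transcript lengths its share was 64.2% ± 23.2 in KO and 75.6% ± 7.64 in WT oocytes, and Atp5g2 had the highest mean share in both groups on either length, although on the transcript lengths Atp5g3 was ahead of it in KO4.

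Of 7 genes for complex V assembly and its neighbours, of which Atp5s is one, 5 passed the filter. Of these, 2 were higher by over 1.5-fold (40%, beside 22.6% of all genes) and none was lower (beside 7.92%). KO oocytes lay wholly above WT oocytes for 3 of the 5, beside 18.9% of all genes. Usmg5, a small subunit of the membrane part, was at 36.9, 81.3, 35.0 and 28.6 FPKM in KO1 to KO4, against 23.0, 13.4 and 14.7 FPKM in WT1, WT2 and WT4, without overlap. Atpaf1, a chaperone of the beta subunit, was at 1.60 ± 0.269 FPKM in KO and 0.654 ± 0.453 FPKM in WT oocytes, also without overlap. The WT oocytes alone would not have carried Atpaf1 past the filter, so its call is no support for the list. The ATPase inhibitor gene Atpif1 was at 3.44 ± 1.21 FPKM in KO and 2.20 ± 0.119 FPKM in WT oocytes, within 1.5-fold.

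Of 14 regulators of mitochondrial gene expression and biogenesis, 8 passed the filter. Over 1.5-fold higher were 2 (25%, beside 22.6% of all genes), and 1 was lower (12.5%, beside 7.92%). Each of these 3 parted the groups, where 18.9% of all genes lay wholly above and 8.94% wholly below. Tfam, which packs and transcribes mitochondrial DNA, was at 3.79, 3.25, 1.88 and 2.51 FPKM in KO1 to KO4, against 1.09, 0.658 and 1.17 FPKM in WT1, WT2 and WT4. Ppargc1b, a coactivator of respiratory genes, was at 2.45 ± 0.510 FPKM in KO and 0.899 ± 0.257 FPKM in WT oocytes. The WT oocytes alone would not have carried either gene past the filter, since Tfam was under FPKM 1 in WT2 and Ppargc1b in WT4. The calls of Tfam and Ppargc1b are therefore no support for the list. Tfb1m, which modifies mitochondrial ribosomal RNA, was at 7.53, 7.31, 5.78 and 8.40 FPKM in KO1 to KO4, against 30.7, 15.7 and 13.9 FPKM in WT1, WT2 and WT4.

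The 6 subunits of complexes III to V from the mitochondrial genome were all within 1.5-fold, with a median difference of 0.07, and none parted the groups. mt-Co3 was at 4145 ± 964 FPKM in KO and 2916 ± 516 FPKM in WT oocytes, and mt-Atp8 at 212 ± 85.9 FPKM in KO and 293 ± 29.2 FPKM in WT oocytes. Differences were positive for the 3 mitochondrial genes of complex IV and negative for mt-Cytb, mt-Atp6 and mt-Atp8.

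The subunit genes tended to be high or low together in an oocyte. Each gene was set against its mean over the 7 oocytes, and the median over the 40 genes was -0.20, 0.30, 0.26 and -0.26 in KO1 to KO4, against 0.11, -0.17 and 0.13 in WT1, WT2 and WT4, on the log2(FPKM + 1) scale. KO2 and KO3 were thus high and KO1 and KO4 low, and the WT oocytes lay between them. Over all genes above the filter the same medians were 0.07, 0.18, 0.03 and 0.06 in KO1 to KO4 and 0.01, -0.19 and -0.10 in WT1, WT2 and WT4, a smaller range within KO. Complex I genes showed a like order, with medians of -0.06, 0.52, 0.20 and -0.22 in KO1 to KO4 and 0.13, -0.25 and -0.01 in WT1, WT2 and WT4. Over the shortest of 3 classes of all genes by authors' length, 743 genes with 13 of the 40 among them, the medians were 0.04, 0.23, 0.17 and -0.06 in KO1 to KO4 and -0.09, -0.05 and -0.03 in WT1, WT2 and WT4, so KO2 and KO3 were the higher KO oocytes there as well. Of the 40 genes, 28 had their highest KO value in KO2, which is 70% against 33.4% of all genes, and none in KO4. KO4 was the lowest KO oocyte for 21 genes, 52.5% against 25% of all genes, and KO1 for 15 genes, 37.5% against 28.7%.

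Spread between oocytes was wider in KO for these genes. Their median SD of log2(FPKM + 1) was 0.433 in KO and 0.320 in WT oocytes over the 40 genes, and 0.276 in KO and 0.309 in WT oocytes over all genes. Sdha, Cox7a2l and Cox4i2, the genes that parted the groups, had SDs of 0.04, 0.10 and 0.35 in KO oocytes. The mitochondrially encoded list ran in another order, with medians of 0.55, -0.41, 0.25 and -0.27 in KO1 to KO4 and 0.11, -0.21 and 0.01 in WT1, WT2 and WT4. KO1 was thus the highest KO oocyte for mitochondrial and a low one for nuclear subunits, and KO2 the reverse.

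**Figure D5:**
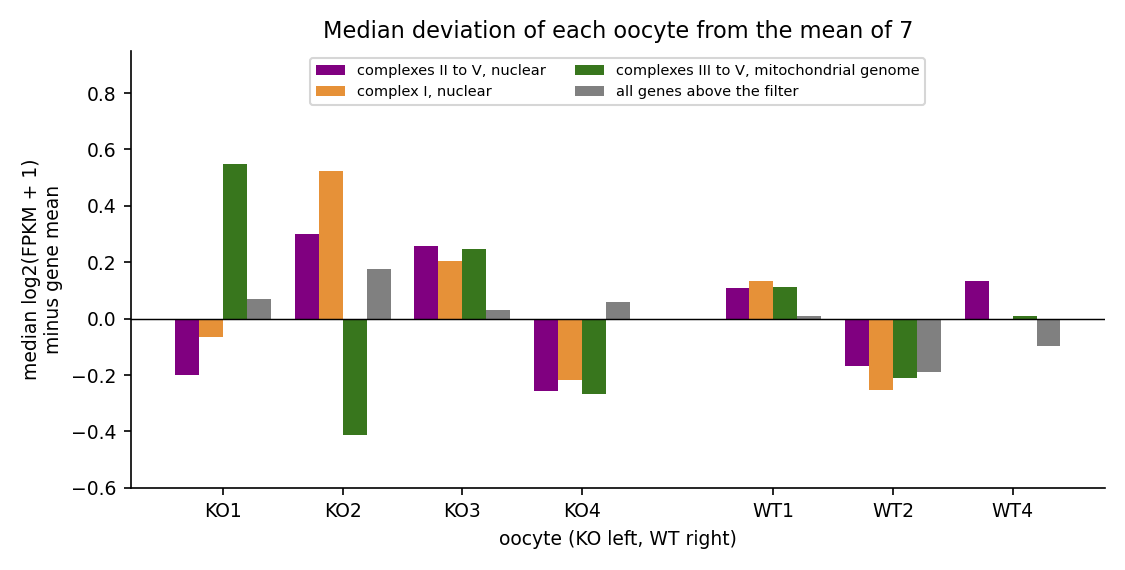
Median over genes of log2(FPKM + 1) minus the gene's mean over 7 oocytes, for 4 gene lists, with KO oocytes left and WT oocytes right. The nuclear genes of complexes II to V are at 0.30 and 0.26 in KO2 and KO3 and at -0.20 and -0.26 in KO1 and KO4, while all genes stay between 0.03 and 0.18 in the KO oocytes.

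Complex I, the other large complex of the chain, was taken as a point of comparison. Of its 40 nuclear genes, 31 passed the filter, 9 were over 1.5-fold higher (29.0%, beside 22.6% of all genes) and 2 lower (6.45%, beside 7.92%) in KO oocytes, with a median difference of 0.10, beside 0.18 over all genes. In 4 of them the KO values lay wholly above the WT values (18.9% of all genes), and in 2 wholly below (8.94% of all genes). The difference between complex I and complexes II to V in these counts was not tested.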

How the data were processed

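RNA of 7 single mouse MII oocytes, 4 KO and 3 WT, was amplified in each oocyte and sequenced, per the labels' protocols. The authors deposited 1 table of FPKM values per Ensembl gene and oocyte. The submitters' processing notes name the mm9 build and, with no role for each, edgeR 3.1.10, HTSeq, Bowtie 0.12.8, Bowtie2, TopHat and TopHat2 2.0.2. Symbols, transcripts and gene positions came from GENCODE on GRCm38, which named 87.4% of the 37620 identifiers.

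Low FPKM values are whole multiples of 1 read, which gave each library's reads and the authors' gene lengths: at a tolerance of 0.01, all 60 genes used to find the scale and all 46 members with reads in several libraries had whole lengths. The procedure was checked on simulated data. Of these 46, the authors' length was over 1.5-fold longer than the GRCm38 exons for 12 and over 1.5-fold shorter for 9. Ranks of FPKM between genes depend on these lengths. FPKM hold no spike-in scale, so levels are relative to the other RNA of the oocyte.

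Genes that reached FPKM 1 in 3 or more libraries were compared by the difference of mean log2(FPKM + 1), pseudocount 1. No test was made, since each library is 1 cell and no animal is named. Members and lists were chosen with earlier results of these data known. Named with values were members over 1.5-fold apart, isoform sets, the 2 most abundant members of each complex, the Sdh genes, and from each list the 2 largest differences and any over 2-fold. Other genes were named for their role after their values were seen. Sequence shared with other genes was counted in stretches of 50 bases of GENCODE transcripts. Where the authors' length is longer than the GRCm38 exons, part of the counted sequence was not checked. Poisson intervals are exact at 95%. Alternatives were pseudocounts of 0.1 and 5, filters of none and FPKM 10, median-ratio and quantile scaling, each oocyte left out, and, chosen after seeing the data, other lengths for the Cox4 share and leaving out genes with over 10% shared sequence. Python 3.11.15, numpy 2.4.6, pandas 2.3.3, scipy 1.17.1 and Biopython 1.88 were used.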

Additional observations from a re-analysis of the deposited data

Results flagged for a closer look

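Among 29 sets of KO oocyte values examined for a single oocyte far from the others, 1 stood out: Sdhd in KO1, at 20.7 FPKM, where the other 3 KO oocytes were at 27.5 to 28.6 FPKM and the WT oocytes at 20.5 to 47.0 FPKM. Chance alone flags about 1 in 20 such groups, and the value lies inside the WT range.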

How the results depend on the processing

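The main counts were 5 genes over 1.5-fold higher and 3 lower in KO oocytes. The higher count was 3 with a pseudocount of 5 (7.86% of all genes were higher there, beside 22.6% with a pseudocount of 1), with median-ratio scaling and with quantile normalization. The lower count was 6 with a pseudocount of 0.1 (11.0% of all genes, beside 7.92%), 7 with median-ratio scaling and 6 with quantile normalization. Leaving out 1 oocyte gave 2 (without WT2, where 19.95% of all genes were higher) to 9 (without WT1, where 28.9% were) higher and 3 without KO3 (23.7%), and 2 to 5 lower (5 without KO2, where 9.13% of all genes were lower). The median difference stayed between -0.12 and 0.07 in those fits. Cox4i2 and Sdha kept their direction and stayed over 1.5-fold apart under every alternative run, and the Cox4i2 share stayed 62.5 to 69.7 points higher in KO oocytes with 1 oocyte left out. Uqcr10, Uqcr11, Atp5mpl, Atp5h, Sdhb and Atp5g2 each came within 1.5-fold without at least 1 oocyte, as given with their values, as did Uqcr11 and Atp5h with either scaling or a pseudocount of 5 and Sdhb with a pseudocount of 5. Without the 9 genes that share over 10% of their sequence, 4 of 31 were higher and 2 lower, beside 22.6% and 7.92% of all genes. Of 253 values of single genes under the alternatives, 9 moved by more than the spread between oocytes. No paired analysis was possible because no test was made and the labels tie no oocyte to an animal, so a shared number pairs nothing. Depth limits the genes under about 1 FPKM, and the SD covers single oocytes and not animals.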
